A study of Mus musculus with 18 samples.

Results

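The response of wild-type mouse hepatoma cells to benzo[*a*]pyrene (BaP) was taken from 6 of the 18 Affymetrix arrays in the series, 3 labelled as BaP-treated and 3 as naive (DMSO). Membership was decided by the sample titles alone. Hepa-1c1c7 is a cultured mouse liver tumor line, whose strain the labels give as C57BL/6 derived. The treated cells received 5 µM BaP in DMSO and the naive cells the vehicle, each for 8 hr, and the series design calls the 3 samples of a group biological replicates. All 18 arrays entered the fit so that the spread was shared. The other 12 were TCDD-treated wild-type cells and naive, TCDD-treated and BaP-treated *c*35 cells, a derivative of the same line whose AHR cannot bind DNA. The study's methods give 5 nM for TCDD. The sample table holds that dose for the *c*35 arrays and none for the wild-type TCDD arrays. A tumor line in culture lacks the other cells of the liver, and both lines share that limit.

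BaP is a polycyclic aromatic hydrocarbon of soot and smoke. It binds the aryl hydrocarbon receptor (AHR), which then enters the nucleus, pairs with ARNT and binds DNA at response elements with the core letters GCGTG. In liver cells the best known targets are enzymes that oxidize and conjugate foreign compounds, and the cytochrome P450 enzymes among them turn BaP into quinones and diol epoxides that stress the cell and bind its DNA. Genes driven by NRF2, which answers oxidants and electrophiles, and by p53, which answers DNA damage, were therefore described beside the AHR genes.

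Values are log2 signals from robust multiarray averaging, and differences are given on the same log2 scale. Over all probe sets the 3 DMSO arrays correlated with each other at r = 0.993 to 0.997, the 3 BaP arrays at 0.996 to 0.997, and arrays of different treatment at 0.991 to 0.996. DMSO replicate 1 stood apart from the other DMSO arrays. Its 3′ minus 5′ signal of the *Actb* control was 1.38, against 0.81 to 1.14 on the other 5 arrays, and its standard deviation (SD) around the group mean was 0.18, against 0.11 to 0.14. The same signal of the *Gapdh* control was 0.012 to 0.16 on the DMSO arrays and 0.097 to 0.24 on the BaP arrays, highest on BaP replicate 1. Of 8 measured hepatoma and hepatocyte markers, 6 lay above the array median on all 6 arrays, among them *Alb*, *Afp* and *Hnf4a*, while *Apoa1* and *Apob* did not. Of the markers of other cells, 4 of 9 for blood and immune cells, 1 of 8 for endothelium, 6 of 8 for stellate cells and fibroblasts and 3 of 5 for bile duct lay above the median. *Ptprc*, *Pecam1*, *Cdh5* and *Krt19* lay below it, while *Col1a1*, *Acta2* and *Epcam* lay above it. By the brightest probe set of each gene none of these markers passed the test for BaP. The fibroblast marker *Dcn*, at -0.11 in its brightest, fell by 1.01 in a dimmer probe set (adjusted p = 4.13e-05 from limma). In bulk samples, fewer cells of a type and less RNA per cell cannot be told apart.

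BaP changed 320 of 18193 measured genes (1.76%) at an adjusted p below 0.05 from limma and a change above 1.5-fold. Of these, 194 rose (1.07%) and 126 fell (0.693%). Leaving out DMSO replicate 1 gave 285 genes, of which 187 rose and 98 fell. With the *Actb* 3′ minus 5′ signal as a covariate there were 338, and with that of *Gapdh* 393, of which 227 rose and 166 fell. Counted as probe sets, 598 of 45037 changed (1.33%), of which 308 rose (0.684%) and 290 fell (0.644%). When each gene was represented by its brightest probe set, as in all single gene values and list counts below, 240 genes changed (1.32%), of which 161 rose (0.885%) and 79 fell (0.434%). The BaP arrays did not overlap the DMSO arrays for 239 of these 240 genes, where 23.8% of all genes did not overlap (11.5% with the BaP arrays above and 12.3% with them below). The 240 were called on the same arrays, so a lack of overlap is largely built into that count.

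By the brightest probe set the rises were larger than the falls. The median change was 0.76 among the raised genes and -0.69 among the lowered genes, where the median of all genes was 0.0012. Of the 161 raised genes, 31 rose more than 2-fold and 7 more than 4-fold. Of the 79 lowered genes, 3 fell more than 2-fold and 0 more than 4-fold. Some genes of either direction passed 2-fold only in a dimmer probe set, among them the lowered *Mybpc1* at -1.57 and the raised *Slc7a11* at 1.84. Without a minimum change the directions were nearly even. At an adjusted p below 0.05 from limma, 606 genes were higher (3.33%) and 572 were lower (3.14%). Just inside the 1.5-fold minimum lay the WNT receptor gene *Fzd8* at 0.59 and the fibrillin gene *Fbn2* at -0.59. *Gch1* at 0.58 and *Zfp462* at -0.58 lay just outside it.

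**Figure D1:**
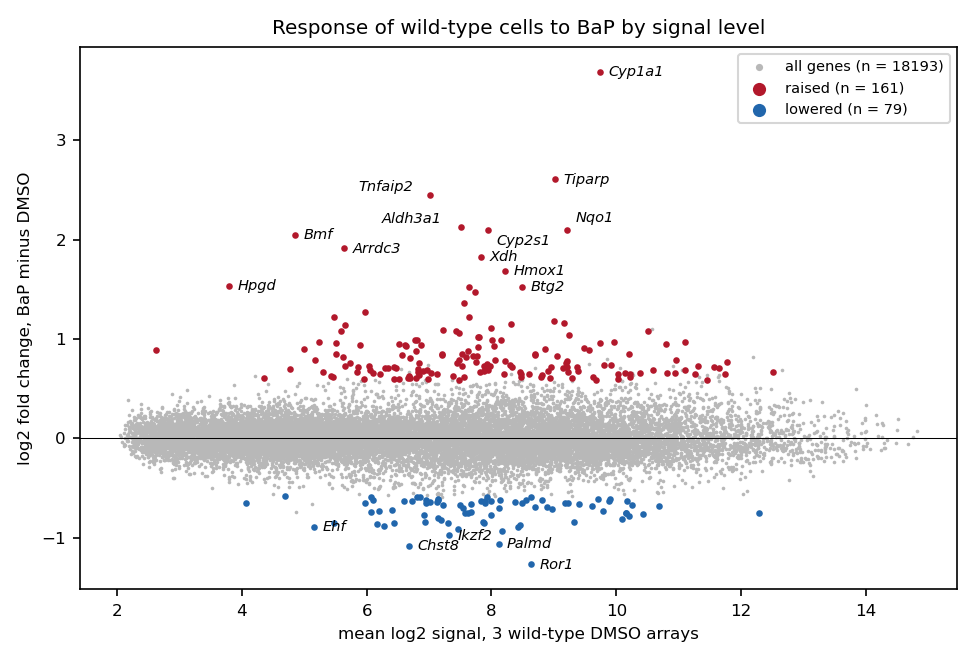
Each point is a gene at the probe set with the highest mean, placed by its mean log2 signal on the 3 wild-type DMSO arrays and by its log2 fold change, BaP minus DMSO. Red points are the 161 raised genes and blue points the 79 lowered genes, and *Cyp1a1* at 3.69 and *Ror1* at -1.27 are the extremes.

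The sequences before the start sites of strongly moved genes are shown because the AHR core can be read in them. They are RefSeq promoter windows of build GRCm38.p6, each 300 bases long, from 250 bases before the gene's start to 50 after it. Capitals mark the core GCGTG, or its reverse complement CACGC where the core lies on the opposite strand. *Cyp1a1* (chr9:57697363-57697662, plus strand), *Tiparp* (chr3:65528197-65528496, plus strand) and *Tnfaip2* (chr12:111442411-111442710, plus strand) had the 3 largest rises. *Chst8* (chr7:34812662-34812961, minus strand) had the second largest fall by the brightest probe set.
Cyp1a1: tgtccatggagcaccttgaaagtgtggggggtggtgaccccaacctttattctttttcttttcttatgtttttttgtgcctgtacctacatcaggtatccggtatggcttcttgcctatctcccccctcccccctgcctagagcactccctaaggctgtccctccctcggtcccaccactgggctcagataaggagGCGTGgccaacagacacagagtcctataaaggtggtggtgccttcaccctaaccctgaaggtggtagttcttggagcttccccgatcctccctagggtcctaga
Tiparp: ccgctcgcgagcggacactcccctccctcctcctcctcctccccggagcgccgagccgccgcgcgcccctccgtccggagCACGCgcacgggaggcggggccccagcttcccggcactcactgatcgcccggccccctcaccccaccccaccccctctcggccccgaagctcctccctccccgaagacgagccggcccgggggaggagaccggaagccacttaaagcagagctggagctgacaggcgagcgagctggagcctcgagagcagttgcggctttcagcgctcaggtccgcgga
Tnfaip2: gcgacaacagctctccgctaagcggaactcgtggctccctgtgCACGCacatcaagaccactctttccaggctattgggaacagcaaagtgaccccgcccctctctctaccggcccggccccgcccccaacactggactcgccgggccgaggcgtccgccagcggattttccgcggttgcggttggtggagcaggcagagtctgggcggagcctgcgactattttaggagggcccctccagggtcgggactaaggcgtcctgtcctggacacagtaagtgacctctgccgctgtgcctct
Chst8: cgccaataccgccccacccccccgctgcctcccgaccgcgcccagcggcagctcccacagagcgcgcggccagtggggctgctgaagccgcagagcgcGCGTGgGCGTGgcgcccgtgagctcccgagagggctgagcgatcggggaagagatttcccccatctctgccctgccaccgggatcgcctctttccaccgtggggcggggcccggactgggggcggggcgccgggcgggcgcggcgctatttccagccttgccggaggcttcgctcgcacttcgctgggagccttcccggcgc
The *Cyp1a1* window held 1 core, starting 54 bases before the gene. *Tiparp* and *Tnfaip2* each held 1 on the opposite strand, starting 170 and 207 bases before it. The *Chst8* window held 2 copies, starting 152 and 146 bases before the gene, so the motif stood before a gene that fell as well as before genes that rose. The windows of *Nqo1*, *Cyp2s1* and *Ror1* held none.

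Among genes called by any probe set, 127 of the 194 raised genes, 48 of the 126 lowered genes and 11720 of all 18193 measured genes had exactly 1 window. GCGTG was on either strand of 62.2% of the raised windows, 58.3% of the lowered windows and 44.3% of all windows. The longer form TNGCGTG, which contains the same core, was in 11.8%, 12.5% and 7.03%. The antioxidant response element TGACNNNGC, which NRF2 binds, was in 25.2% of the raised windows, 12.5% of the lowered windows and 14.1% of all. The AP-1 site TGANTCA was in 14.2%, 4.17% and 6.1%. CCAAT was in 40.9%, 45.8% and 38.7%, and TATAA in 24.4%, 18.8% and 17.8%. The windows also differed in base composition. The median G and C content was 62% in the raised, 64.3% in the lowered and 58.7% in all windows. The median number of CG dinucleotides, which the core GCGTG contains, was 17 in the raised, 24 in the lowered and 17 in all windows. These shares are a description of the sequences and were not tested.

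The classic AHR targets gave the largest response. Of 9 measured genes of the AHR battery, 7 rose (77.8%, where 0.885% of all genes rose) and 0 fell, with a median change of 2.09. *Cyp1a1*, the P450 that oxidizes BaP itself, stood at 9.61, 9.78 and 9.81 on the DMSO arrays and at 13.44, 13.47 and 13.37 on the BaP arrays. The groups were far apart and each was tight. The difference was 3.69, or 12.9-fold (standard error 0.67, adjusted p = 0.00186 from limma), where the error came from all 18 arrays and the SD within these groups was 0.11 and 0.051. *Tiparp*, whose ADP-ribosylating product restrains the receptor, stood at 9.05, 9.02 and 9.01 in naive cells and at 11.66, 11.62 and 11.61 with BaP. It rose 6.09-fold (adjusted p = 1.13e-06 from limma), and all 3 of its probe sets passed.

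The genes of other enzymes of the battery followed. The aldehyde dehydrogenase gene *Aldh3a1* went from 7.48, 7.54 and 7.50 to 9.73, 9.56 and 9.62, a 4.37-fold rise (adjusted p = 5.81e-11 from limma). The quinone reductase gene *Nqo1*, a target of AHR and NRF2 alike, went from 9.17, 9.24 and 9.23 to 11.36, 11.33 and 11.24, a 4.28-fold rise (adjusted p = 4.98e-11). *Cyp2s1*, another P450, went from 7.88, 7.99 and 7.98 to 10.13, 10.01 and 9.99, a 4.27-fold rise (adjusted p = 2.81e-12). In none of these 3 genes did the groups overlap, which the rule for naming the largest rises required. *Xdh*, which encodes the xanthine-oxidizing enzyme, rose by 1.83 (standard error 0.16) and *Cyp1b1*, a P450 expressed mostly outside the liver, by 0.95 (standard error 0.21). *Cyp1b1* no longer passed without BaP replicate 1, or as the mean of its 3 probe sets. *Cyp1a2*, the liver partner of *Cyp1a1*, lay at 5.05 to 5.45 over both sets of arrays and differed by 0.17 (adjusted p = 0.585 from limma). *Ahrr*, which encodes the AHR repressor, was dim at 2.69 to 2.97 and differed by 0.18 (adjusted p = 0.487).

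Of 10 measured genes of the AHR complex and its repressors, *Tiparp* alone passed (10%, where 1.32% of all genes passed), and the median was -0.061. *Ahr* stood at 10.51, 10.55 and 10.53 in naive cells and at 10.38, 10.30 and 10.25 with BaP. The BaP arrays all lay below the DMSO arrays, but the difference of -0.22 did not pass (adjusted p = 0.106 from limma). *Arnt* was higher by 0.19 (adjusted p = 0.324). The corepressor gene *Nrip1* was lower by 0.31 (adjusted p = 0.0243), short of 1.5-fold. *Arnt2*, the chaperone gene *Hsp90aa1* and the coactivator genes *Ncoa1*, *Ncoa2* and *Ncoa3* differed by -0.27 to -0.03 and did not pass.

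Other genes rose as far as members of the AHR battery. *Tnfaip2*, a gene first known as induced by tumor necrosis factor, stood at 7.10, 7.00 and 6.93 in naive cells and at 9.52, 9.42 and 9.44 with BaP. It rose 5.46-fold (standard error 0.09 on the log2 scale, adjusted p = 2.55e-12 from limma), in 2 of its 3 probe sets, while the third differed by 0.063. *Bmf*, which encodes a BH3-only protein that promotes apoptosis, went from 4.95, 4.87 and 4.74 to 7.03, 6.66 and 7.02, a 4.14-fold rise (adjusted p = 1.01e-07). Of its 3 probe sets, 1 passed. *Arrdc3*, whose arrestin-like product sorts receptors for degradation, went from 5.70, 5.65 and 5.57 to 7.66, 7.50 and 7.49 (adjusted p = 3.67e-06). *Ramp3*, whose product escorts the calcitonin receptor-like receptor, rose by 1.36. *Adh7*, which encodes a retinol-oxidizing alcohol dehydrogenase, rose by 1.52, and both of its probe sets passed. *Ogn*, a small proteoglycan gene, rose by 1.27. It was the 1 riser among 46 measured collagen and matrix genes (2.17%, where 0.885% of all genes rose), of which *Fbn2* fell. *Fbn2* did not pass without BaP replicate 1, DMSO replicate 1 or DMSO replicate 3.

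**Figure D2:**
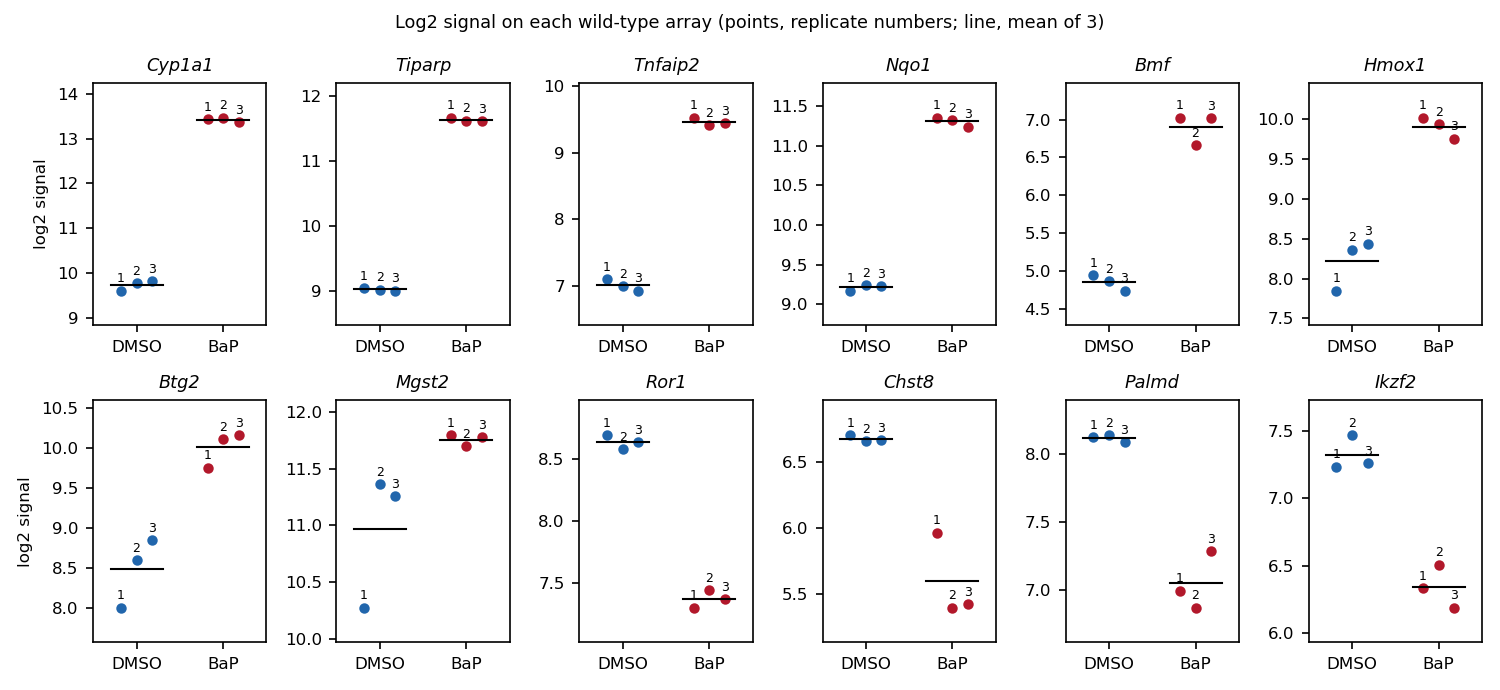
Log2 signal of 12 genes on each of the 6 wild-type arrays, with DMSO on the left of each panel, BaP on the right, the replicate number above each point and a line at the mean of 3. The groups are separate in every panel, which the naming rule required of the largest rises and falls. DMSO replicate 1 lies below the other DMSO arrays in *Hmox1*, *Btg2* and *Mgst2*.

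Part of the NRF2 targets rose, led by *Hmox1* and *Nqo1*. Of 25 measured targets, 8 rose (32%, where 0.885% of all genes rose) and 0 fell, and the median was 0.34. With the change of any size, 15 were higher and 0 lower at an adjusted p below 0.05. Over all genes 3.33% were higher and 3.14% lower. *Hmox1*, which encodes the heme-degrading oxygenase, stood at 7.85, 8.37 and 8.44 in naive cells and at 10.02, 9.94 and 9.76 with BaP. The groups did not overlap, as the naming rule required of the largest rises. DMSO replicate 1 was the lowest of its group, and the rise was 3.22-fold (standard error 0.11 on the log2 scale, adjusted p = 1.17e-08 from limma). *Osgin1*, an oxidative stress-induced growth inhibitor, rose by 1.47 (adjusted p = 8.67e-10). *Slc7a11*, the cystine importer that feeds glutathione synthesis, rose by 0.84, the sulfiredoxin gene *Srxn1* by 0.73 and the exporter gene *Abcc4* by 0.68. *Gclc* and *Gclm*, the subunits of the first enzyme of glutathione synthesis, rose by 0.68 and 0.66. The pentose phosphate genes on the list were mixed, with *Pgd* higher by 0.44 (adjusted p = 0.000393) and *Tkt* and *Taldo1* at -0.09 and 0.07. Among 8 regulators, *Maff*, a small MAF partner of NRF2, rose by 0.71. *Nfe2l2*, which encodes NRF2, differed by 0.22 (adjusted p = 0.298), and *Keap1*, its inhibitor, by 0.12 (adjusted p = 0.447). The microsomal glutathione transferase gene *Mgst2* passed at 0.79, but it rested on DMSO replicate 1, at 10.28 where the other DMSO arrays stood at 11.36 and 11.26, and did not pass without it.

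Heme metabolism was looked at after its values were seen, since *Hmox1* and *Cpox* were both among the raised genes. Of 11 measured genes, 2 rose and 1 fell, where 0.885% of all genes rose and 0.434% fell. The 2 that rose are the genes that prompted the look, so that count was fixed in advance. *Cpox*, which encodes coproporphyrinogen oxidase near the end of the pathway, rose by 1.18, from 8.77 to 9.30 on the DMSO arrays to 9.90 to 10.35 on the BaP arrays. *Alad*, which encodes the second enzyme of the pathway, fell by 0.75, from 12.15 to 12.55 down to 11.45 to 11.60. *Alas1*, the gene of the first and rate-limiting enzyme, was higher by 0.44 without overlap, short of 1.5-fold. The others, among them *Fech* and *Hmox2*, differed by -0.21 to 0.20.

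Targets of p53 moved mostly up and by small amounts. Of 28 measured targets, 5 rose (17.9%, where 0.885% of all genes rose) and 1 fell (3.57%, where 0.434% fell). The median was 0.33. With the change of any size 17 were higher and 1 lower at an adjusted p below 0.05. Over all genes 3.33% were higher and 3.14% lower. *Btg2*, an antiproliferative gene that p53 and growth signals both induce, stood at 8.01, 8.60 and 8.85 in naive cells and at 9.75, 10.11 and 10.16 with BaP, a 2.87-fold rise (adjusted p = 3.02e-06 from limma), and both of its probe sets passed. The naive arrays were spread widely here, and replicate 1 was the lowest. *Trp53inp1*, a stress-induced p53 partner, went from 10.81, 10.77 and 10.79 to 11.74, 11.82 and 11.67, a rise of 0.95 (adjusted p = 3.07e-08). The death receptor gene *Fas* rose by 0.79, the receptor gene *Eda2r* by 0.69 and the polo-like kinase gene *Plk2* by 0.69. *Cdkn1a*, which encodes the p21 inhibitor of cell cycle kinases, was higher by 0.51 (adjusted p = 1.68e-05) and *Mdm2*, the p53 ubiquitin ligase, by 0.33 (adjusted p = 0.02), both short of 1.5-fold in the brightest probe set. *Cdkn1a* passed in its other probe set, at 0.63 (adjusted p = 0.00013), and so did *Sesn2*, a sestrin gene, at 0.60 (adjusted p = 0.0097). *Gadd45a* went the other way. It stood at 7.93, 7.99 and 8.06 in naive cells and at 7.46, 7.22 and 7.40 with BaP, a fall of 0.63 (adjusted p = 0.000204), and did not pass without BaP replicate 2.

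None of the listed repair, replication and mitosis genes passed, where 1.32% of all genes did. Limma called 0 of 24 nucleotide excision repair genes, the pathway that removes bulky BaP adducts, and at an unadjusted p below 0.05 there were 3 higher and 4 lower. It called 0 of 25 translesion and crosslink repair genes (2 higher and 10 lower at an unadjusted p below 0.05). Of 40 DNA replication genes it called 0, and the median was -0.12, with 0 higher and 18 lower at an unadjusted p below 0.05 and 0 higher and 5 lower at an adjusted p below 0.05. Of 34 mitosis genes it called 0, and the median was -0.14, with 0 higher and 12 lower at the unadjusted threshold and 0 higher and 4 lower at the adjusted one. Over all genes 3.33% were higher and 3.14% lower at an adjusted p below 0.05, 19.2% had an unadjusted p below 0.05, and 52.3% of those were lower.

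Regulators that slow growth were among the raised genes. Of 17 measured genes of the BTG, TOB, GADD45 and GAS families, 4 rose (23.5%) and 1 fell (5.88%), where 0.885% of all genes rose and 0.434% fell. *Gadd45b* rose by 1.02, *Ndrg1*, a gene tied to differentiation and low oxygen, by 0.99, with 4 of 5 probe sets past the test, and *Tob2* by 0.61. *Tob2* did not pass in 4 of the 6 fits that left out an array. Of 29 genes of the CDK inhibitors, G1 cyclins, RB and E2F, 1 rose and 1 fell. *Ccng2*, an unusual cyclin of resting cells, went from 7.87 to 8.09 in naive cells up to 8.88 to 9.11 with BaP, and *E2f8*, a repressor of the E2F family, from 10.31, 10.07 and 10.10 to 9.46, 9.41 and 9.34. Neither pair of groups overlapped, and the changes were 0.99 and -0.76. *Id2*, which encodes an inhibitor of helix-loop-helix factors and a BMP target, rose by 1.16, and all 3 of its probe sets passed.

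Immediate early genes are switched on within minutes by growth factors and stress. Of 30 measured at 8 hr, 9 rose (30%, where 0.885% of all genes rose) and 0 fell, and the median was 0.35. The 9 include *Btg2*, also counted among the p53 targets and the antiproliferative genes, and *Maff*, also counted among the NRF2 regulators. The AP-1 subunit genes *Jun*, *Fosl1* and *Fos* rose by 0.76, 0.74 and 0.73. *Fos* stood at 7.51, 7.52 and 7.54 in naive cells and at 8.30, 8.24 and 8.21 with BaP, with no overlap. *Ier3*, which modulates cell survival, rose by 0.96, and the nuclear receptor gene *Nr4a1* by 0.78. *Myc* did not follow, at -0.27, and *Egr2* differed by 0.0031 (adjusted p = 0.994). Of 17 MAP kinase phosphatases and Sprouty inhibitors, which end such signals, limma called 0, with 7 higher and 2 lower at an unadjusted p below 0.05. Of all genes 19.2% had such a p. The ligand gene *Nrg1* rose by 1.11 and the hepatocyte growth factor receptor gene *Met* by 0.70, the 2 risers among 15 measured genes listed as EGF ligands and receptors.

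Of 30 measured genes of the NF-κB pathway and its targets, 5 rose (16.7%, where 0.885% of all genes rose) and 0 fell, while the median was 0.073. Beside *Tnfaip2* they were *Ptgs2*, the inducible cyclooxygenase, by 0.89, *Nfkbiz*, an atypical inhibitor, by 0.78, and the chemokine genes *Cxcl10* and *Ccl20* by 0.71 and 0.62. *Ccl20* did not pass without BaP replicate 2. *Ptgs2* was dim throughout, at 2.65, 2.79 and 2.42 in naive cells and 3.33, 3.60 and 3.61 with BaP. Of 34 chemokine and cytokine receptor genes 4 rose (11.8%), among them *Lif*, a cytokine of the interleukin 6 family, which went from 7.76, 7.89 and 7.75 to 8.94, 8.79 and 8.73. Of 33 interferon and antigen processing genes 2 rose (6.06%), namely *Ddx58*, a sensor of viral RNA, by 0.84 and *Usp18*, which dampens interferon signals, by 0.78.

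Genes at both ends of prostaglandin metabolism rose. Of 23 measured, 4 rose (17.4%, where 0.885% of all genes rose) and 0 fell. *Pla2g4a*, whose product frees arachidonic acid, rose by 0.62, *Ptgs2* by 0.89, and *Ptges*, which makes prostaglandin E2, by 0.64. *Hpgd*, which encodes the dehydrogenase that inactivates prostaglandins, moved further than the others. It stood at 3.42, 4.07 and 3.90 in naive cells and at 5.68, 5.30 and 5.01 with BaP, a 2.89-fold rise (standard error 0.16 on the log2 scale, adjusted p = 3.74e-06 from limma), in 1 of 2 probe sets. *Pla2g4a* did not pass without DMSO replicate 1 or BaP replicate 2, and *Ptges* did not pass without BaP replicate 3.

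Targets of ATF4 and CHOP, the factors of the integrated stress response, rose in part. Of 33 measured, 6 rose (18.2%, where 0.885% of all genes rose) and 0 fell, with a median of 0.14. *Chac1*, which degrades glutathione, went from 6.76, 6.86 and 6.80 to 7.91, 7.78 and 7.69, a rise of 0.99 (adjusted p = 3.53e-07 from limma). The mTOR inhibitor gene *Ddit4* rose by 0.85, *Ppp1r15a*, which restores translation, by 0.73, and the factor gene *Cebpb* by 0.65. *Eif4ebp1* rose by 0.59 and did not pass without DMSO replicate 1 or BaP replicate 1. The amino acid transporter genes *Slc6a9* and *Slc1a4* rose by 0.88 and 0.67. Of 24 endoplasmic reticulum chaperones and sensors 1 rose, the cochaperone gene *Dnajb9*, by 0.93, and the median was 0.21. At an unadjusted p below 0.05 there were 13 higher and 0 lower, where 19.2% of all genes had such a p. Of 27 heat shock genes 1 rose, *Hspa4l*, by 0.96, and all 5 of its probe sets passed.

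The BCL2 family moved in both directions. Of 17 measured, *Bmf* rose (5.88%, where 0.885% of all genes rose), and *Bcl2* and *Bnip3* fell (11.8%, where 0.434% of all genes fell). *Bcl2*, the founding survival gene, went from 7.55, 7.78 and 7.66 to 7.02, 6.97 and 7.04, a fall of 0.66 (adjusted p = 4.08e-05 from limma), and 2 of its 5 probe sets passed. *Bnip3*, a mitophagy gene that low oxygen induces, went from 9.68, 9.75 and 9.71 to 9.32, 9.06 and 8.92, a fall of 0.61 (adjusted p = 0.000101), and did not pass without BaP replicate 3. In both genes every BaP array lay below every DMSO array. Of 26 death receptors, caspases and inhibitors of apoptosis, *Fas* alone passed.

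Metabolic and liver identity lists held 0 to 2 raised genes each, where 0.885% of all genes rose and 0.434% fell. Limma called 0 of 26 cholesterol synthesis genes, with 3 higher and 5 lower at an unadjusted p below 0.05. In fatty acid synthesis and storage 2 of 34 rose (5.88%), the phosphatidate phosphatase genes *Lpin1* and *Lpin2*, by 0.85 and 0.76. In fatty acid oxidation 1 of 26 fell (3.85%), the coactivator gene *Ppargc1b*, by 0.70. Of 25 genes of glycolysis and gluconeogenesis *Pfkfb3* alone passed, at 0.70, while the median was -0.16, with 2 higher and 6 lower by adjusted p alone. Of 42 hepatocyte plasma proteins *Rbp4*, the retinol carrier, alone passed, from 12.57, 12.49 and 12.46 to 13.17, 13.18 and 13.17. Beside it, among 41 dehydrogenase genes, *Aldh3a1* and *Adh7* rose, and *Rdh10*, which oxidizes retinol, fell by 0.76. Of 36 P450 genes outside the CYP1 family *Cyp2s1* alone passed, and limma called 0 of 17 glucuronosyl and sulfotransferases, with 0 higher and 3 lower at an unadjusted p below 0.05. The nuclear receptor gene *Ppard* rose by 0.85.

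**Figure D3:**
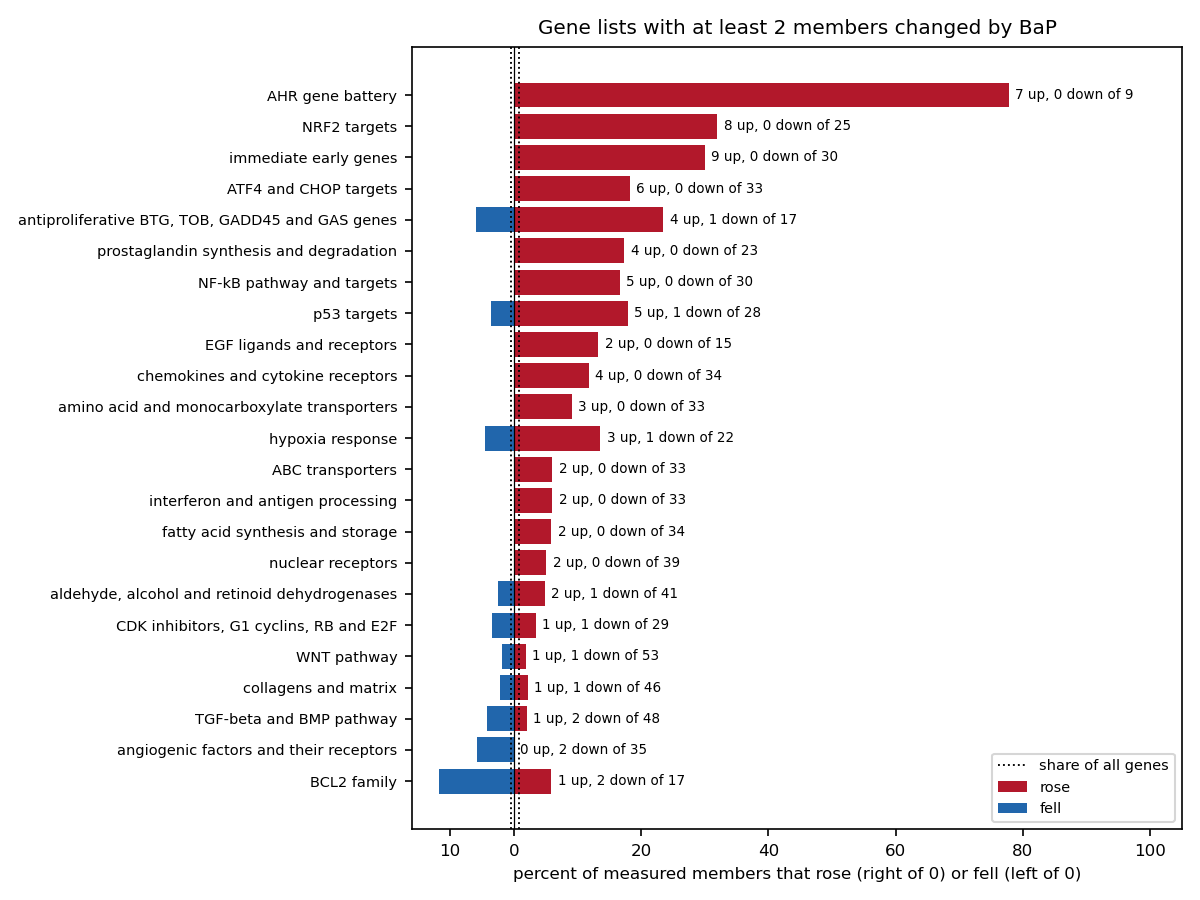
The 23 gene lists with at least 2 members changed by BaP, with the percent of measured members that rose to the right of 0 and that fell to the left, counts beside each bar, and dotted lines at the shares of all genes (0.885% and 0.434%). The AHR battery leads with 7 of 9, followed by NRF2 targets with 8 of 25 and immediate early genes with 9 of 30, and the BCL2 family has the largest share that fell, 2 of 17.

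Fewer lists held a lowered gene than a raised gene. Of 56 lists, 33 had a member that rose, 13 had a member that fell and 19 had none of either. Fewer genes fell than rose over all genes as well, at 0.434% against 0.885%. The largest fall by the brightest probe set was that of *Ror1*, which encodes a WNT5A receptor. It stood at 8.70, 8.58 and 8.64 in naive cells and at 7.30, 7.44 and 7.37 with BaP, a 2.41-fold fall (standard error 0.11 on the log2 scale, adjusted p = 4.32e-07 from limma). Of its 3 probe sets 1 passed, and the mean of the 3 did not. *Chst8*, which encodes a sulfotransferase of glycoprotein hormones, went from 6.71, 6.66 and 6.66 to 5.97, 5.39 and 5.42, a 2.12-fold fall (adjusted p = 4.21e-06). *Palmd*, a gene of the paralemmin family, went from 8.12, 8.14 and 8.09 to 7.00, 6.87 and 7.28, a 2.09-fold fall (adjusted p = 3.97e-06). In these 3 genes the groups did not overlap, which the rule for naming the largest falls required.

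*Ikzf2*, which encodes the zinc finger protein Helios, went from 7.23, 7.47 and 7.26 to 6.34, 6.51 and 6.19, a fall of 0.98 in 2 of 3 probe sets (adjusted p = 1.85e-05 from limma). *Tead4*, whose product is the DNA-binding partner of YAP, fell by 0.86 and was the 1 of 26 Hippo genes that passed. *Ehf*, an ETS factor gene of epithelia, fell by 0.89. It stood at 5.56, 5.01 and 4.90 in naive cells and at 4.13, 4.30 and 4.37 with BaP, so that DMSO replicate 1 was the highest. *Ehf* and *Tead4* passed in 1 of 4 and 1 of 2 probe sets, and did not pass as the mean of them.

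By the brightest probe set, other large falls were smaller than 2-fold. Some genes fell further in a dimmer probe set, among them *Mybpc1* by 1.57 and *Fam107a* by 1.54, named after their values were seen. In their brightest, *Mybpc1* stood at -0.83 and *Fam107a* at -0.26, and all 3 *Mybpc1* probe sets passed. The ATP receptor gene *P2ry2* fell by 0.88, the adducin gene *Add3* by 0.86 with 3 of 4 probe sets past the test, the kinase gene *Nuak2* by 0.84 and *Ppp1r3c*, which directs a phosphatase to glycogen, by 0.86. Of 35 angiogenic factors and receptors 2 fell (5.71%, where 0.434% of all genes fell) and 0 rose. *Angpt1*, the ligand of TIE2, went from 10.11, 10.06 and 10.09 to 9.36, 9.25 and 9.23, and *Vegfc*, the lymphatic growth factor, from 9.80, 9.75 and 9.81 to 9.09, 9.02 and 9.05. Both pairs of groups were well apart, with falls of 0.81 and 0.73. Of 48 TGF-β and BMP genes, *Id2* rose and the inhibitor gene *Smad6* and the ligand gene *Tgfb3* fell, by 0.75 and 0.65. *Tgfb3* did not pass without BaP replicate 2.

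Raised and lowered genes differed in how their probe sets behaved. Of the 194 raised genes, 33 (17%) were called by a probe set dimmer than the brightest and not by the brightest itself. Among the 126 lowered genes this was so for 47 (37.3%). Besides *Cdkn1a* and *Sesn2*, named after their values were seen, this holds for *Sqstm1*, an autophagy receptor gene and NRF2 target, at 0.96, the orphan receptor gene *Nr4a2* at 0.97 and the liver factor gene *Zbtb20* at -0.93. Of the 123 raised genes with more than 1 probe set, all probe sets passed in 29 (23.6%), against 5 of 100 lowered genes (5%). Averaged over their probe sets, *Srxn1*, *Plk2*, *Ptgs2*, *Lif*, *Ppard*, *Pfkfb3*, *Bcl2*, *E2f8*, *Ppp1r3c* and *Sntb1* did not pass either. Probe sets with no gene symbol also leaned to the lowered side. Of 9160 such probe sets 40 rose (0.437%) and 132 fell (1.44%), whereas of 34945 probe sets with 1 symbol 263 rose (0.753%) and 156 fell (0.446%). These shares were not tested.

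Some genes that changed lay side by side in the genome. Among 18031 measured genes placed on the RefSeq map, 318 of them called, 12 of 18008 neighbouring pairs were called together. In 6 pairs both genes rose, in 4 both fell and in 2 they moved in opposite directions. Of all genes 1.76% were called, so some neighbours would be called together by coincidence. Whether the 12 pairs exceed that number was not tested, and no clustering is read from them. The raised pairs, named after their values were seen, were *Pla2g4a* with *Ptgs2*, *Rmdn2* with *Cyp1b1*, *Ramp3* with *Adcy1*, *Trpm3* with *Klf9*, *Selenbp1* with *Rfx5* and *Hpgd* with *Cep44*. These calls are by any probe set. *Cep44* stood at -0.051 in its brightest, and of the lowered pair *E2f8* and *Nav2*, *Nav2* stood at 0.23 in its brightest.

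The same treatment was given to cells whose AHR cannot bind DNA. In *c*35 cells limma called 0 genes for BaP (lowest adjusted p = 0.999825), and 643 genes (3.53%) had an unadjusted p below 0.05. The genes that rose in wild-type cells had a median change of -0.074 in *c*35 cells, with a range from -0.58 to 0.38, and those that fell had a median of -0.0035, with a range from -0.34 to 0.53. None of the 240 passed 1.5-fold there. For some of these genes the naive level also differed between the lines. *Tnfaip2* averaged 9.55 in naive *c*35 cells, against 7.01 in naive and 9.46 in BaP-treated wild-type cells. *Angpt1* averaged 6.83 in naive *c*35 cells and 10.09 in naive wild-type cells. For others the naive levels were closer, as for *Nqo1* at 8.85 and 9.21. Whether the starting level bears on the difference in response was not tested. The difference in response between the lines was called for 313 genes (1.72%), higher in wild-type cells for 224 (1.23%) and lower for 89 (0.489%), and by the brightest probe set for 243 (1.34%). It passed in the same direction for 132 of the 161 raised genes (82%) and 50 of the 79 lowered genes (63.3%), and it contains the wild-type contrast by which those genes were chosen. *Cyp1a1* varied widely among *c*35 arrays, from 4.87 to 8.34 with DMSO and from 5.25 to 8.32 with BaP, and its difference there was -0.58 (adjusted p = 0.999825). *Nqo1* differed by 0.016 and *Hmox1* by 0.014. Some genes picked by the naming rules passed in wild-type cells but not in the difference between the lines. They included *Cyp1b1*, *Nrep*, *Ppp1r3c*, *Mgst2*, *Eif4ebp1*, *Tob2*, *Tgfb3*, *Fbn2*, *Ptges*, *Pik3r3*, *Il1r1*, *Chd9* and *Abca6*.

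**Figure D4:**
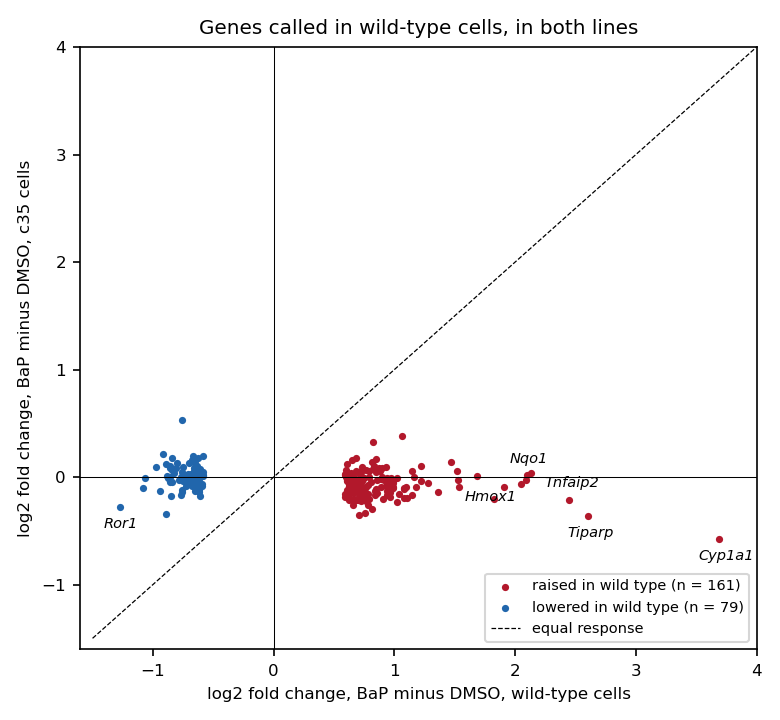
Log2 fold change, BaP minus DMSO, of the genes called in wild-type cells, with wild-type cells on the horizontal axis and *c*35 cells on the vertical axis. The 161 raised genes (red) and 79 lowered genes (blue) lie along 0 on the vertical axis, between -0.58 and 0.53, and not along the dashed line of equal response.

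TCDD, a halogenated AHR ligand that cells hardly metabolize, was set against BaP directly in wild-type cells. The comparison uses the same BaP arrays. The study gave the ligands at different doses, so the sizes below do not compare them at equal dose. The ligands differed for 69 genes (0.379%), of which 33 were higher (0.181%) and 36 lower (0.198%) with BaP, and for 47 by the brightest probe set (0.258%). Of the 161 raised genes, 17 moved further with BaP (10.6%), and of the 79 lowered genes 16 did (20.3%). Since these 240 genes were chosen on the BaP arrays, the counts do not compare the ligands evenly. *Hmox1* had the largest gap, at 1.69 with BaP and 0.39 with TCDD (difference 1.30, adjusted p = 2.61e-06 from limma). *Btg2* followed at 1.52 and 0.52, *Osgin1* at 1.47 and 0.51, and *Vasn*, whose product binds TGF-β, at 0.92 and 0.029. Within the AHR battery *Cyp2s1* rose by 2.09 and 1.25, *Aldh3a1* by 2.13 and 1.41 and *Nqo1* by 2.10 and 1.42. *Cyp1a1*, at 3.69 and 3.28, and *Tiparp*, at 2.61 and 2.44, did not pass the test between ligands.

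Of the 16 lowered genes that went further with BaP, *Ror1* had the largest gap. It stood at -1.27 with BaP and -0.37 with TCDD (difference -0.90, adjusted p = 0.00022 from limma). *Ehf* stood at -0.89 and -0.01, *Ikzf2* at -0.98 and -0.10, *Palmd* at -1.07 and -0.24, and *Sntb1*, a syntrophin gene, at -0.80 and 0.037. The values against DMSO share the DMSO arrays, so they are given side by side and no agreement is read from them. Over the raised genes the median was 0.76 with BaP and 0.50 with TCDD, and over the lowered genes -0.69 and -0.27, where the genes were chosen on the BaP values.

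**Figure D5:**
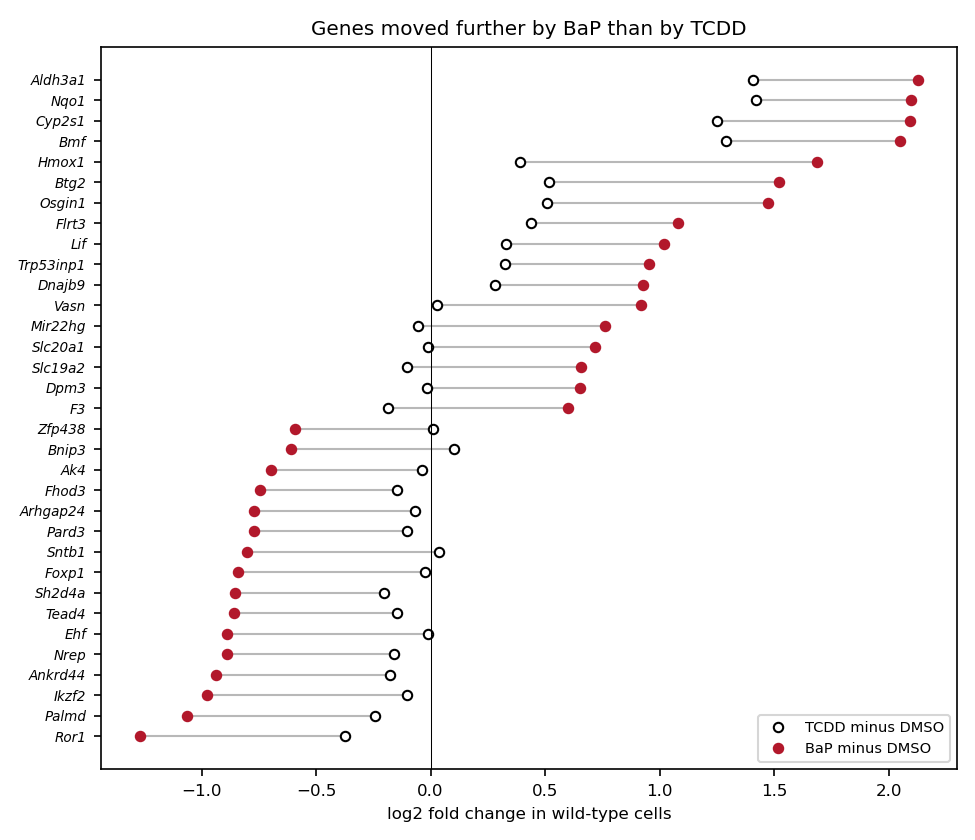
Log2 fold change against DMSO in wild-type cells with BaP (red) and TCDD (open) for the 33 genes that changed with BaP and moved significantly further with it than with TCDD. The 17 raised genes lie on the right and the 16 lowered genes on the left, with the longest gap in *Hmox1* (1.69 against 0.39), and the values of both ligands share the DMSO arrays.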

How the data were processed

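Total RNA of 6 wild-type cultures, 3 treated with BaP and 3 with DMSO, was measured on Affymetrix mouse arrays, and the other 12 arrays of the series entered the fit. The authors deposited the log2 signals as a single table, and the submitters' processing notes name RMA (robust multiarray averaging), with no version. RMA takes values toward one distribution on all arrays, so a change common to most genes would not be seen. The log2 values were used as deposited.

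The table holds 45101 probe sets, and the 64 AFFX controls entered no test. Of the other 45037, 34945 had 1 symbol in the platform annotation, 932 had several and named no gene, and 9160 had none. The symbols of 18031 of 18193 genes were matched to RefSeq by gene number and 0 changed. Limma 3.58.1 (R 4.3.3, the data.table package, version 1.17.8) fitted one mean per group over the 18 arrays, with eBayes and an intensity trend, after a test on simulated data. Adjusted p-values are Benjamini-Hochberg over 45037 probe sets. Calls needed an adjusted p under 0.05 with a change of more than 1.5-fold, the thresholds of the study's methods. The comparisons were BaP against DMSO in each line, their difference, and BaP against TCDD in wild-type cells. A gene's value is that of its brightest probe set, by the mean over the 18 arrays.

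The genes named are *Cyp1a1*, *Ahr* and *Arnt*, the 15 largest rises and 15 largest falls among genes that passed with no overlap of arrays (unnamed clones left out), up to 6 called members of each of 56 gene lists, all measured genes of both AHR lists, the 5 with the largest difference from TCDD in each direction, and those at the edge of the 1.5-fold minimum. Other members of a list, heme genes and neighbouring genes were named after their values were seen. The members and lists were chosen with earlier results of these data known. The 1583 list entries included 1466 that were measured. The lists were not tested as sets, and they share members, so the counts of different lists are not independent. Promoter windows came from RefSeq (GRCm38.p6), and figures were drawn with matplotlib 3.10.9.

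The samples were not treated as paired by replicate number. The deviations of same-numbered DMSO and BaP arrays correlated at -0.068, -0.027 and 0.13, and those of different-numbered arrays at -0.21 to 0.21. Deviations around a mean of 3 are tied to each other, so these values cannot show whether same-numbered cultures were handled together. No arrays held identical values, and precision is limited by the 3 arrays per group. The alternatives were no intensity trend, a robust prior variance, weights per array, median centring or quantile normalization, no dim probe sets, the mean or the brightest probe set per gene, no minimum change, a test against 1.5-fold, fewer arrays, a covariate of *Gapdh* or *Actb* 3′ minus 5′ signal, a replicate block and each array left out in turn.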

Additional observations from a re-analysis of the deposited data

Results flagged for a closer look

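The BaP response of 11 named genes differed between wild-type and *c*35 cells by more than 1.5-fold, by a limma test of the difference against that size. All were genes that rose in wild-type cells, and none passed in *c*35 cells. Many of the named genes were chosen on the wild-type contrast, which this difference contains. Hits among them, and their direction, are therefore largely built in. Of all 18193 measured genes, 20 passed this test, 20 with a higher response in wild-type cells and 0 with a lower one. The difference, wild-type minus *c*35 response on the log2 scale, was 2.97 for *Tiparp* (adjusted p = 0.00263), 2.66 for *Tnfaip2* (adjusted p = 1.97e-08) and 2.12 for *Cyp2s1* (adjusted p = 2.84e-07). It was 2.11 for *Bmf*, 2.09 for *Aldh3a1*, 2.08 for *Nqo1*, 2.03 for *Xdh* and 2.01 for *Arrdc3* (adjusted p = 0.0437). It was 1.67 for *Hmox1*, 1.503 for *Ramp3* and 1.33 for *Osgin1*. *Cyp1a1*, which ranged from 4.87 to 8.34 on the *c*35 DMSO arrays, did not pass this stricter test.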

How the results depend on the processing

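Among the named genes 95 were called, of which 17 kept the call under every alternative tried, 78 lost it under at least 1, most often the test against 1.5-fold, and 16 lost it when an array was left out. None reversed. Averaging each gene's probe sets gave 177 genes changed by BaP (132 higher, 45 lower, so 74.6% higher against 60.6%), 189 that differed between the lines and 31 that differed between BaP and TCDD. With no minimum change these counts were 1473 (729 higher, 741 lower, 49.6% higher), 530 and 405. The test against 1.5-fold gave 33 (31 higher, 2 lower, 93.9% higher), 20 and 1. Leaving out each array in turn gave 285 to 446 genes changed by BaP, 229 to 410 that differed between the lines, 48 to 92 that differed between the ligands, and 0 to 2 changed by BaP in *c*35 cells, the 2 without *c*35 DMSO replicate 3. Every other alternative kept the counts within 1.5 times. The replicate number as a block gave 322 genes (197 higher, 125 lower), against 320 without it, and changed no other count by over 1.5 times. Over the lists, the raised NRF2 targets ranged from 3 to 15 and the raised immediate early genes from 1 to 17 over all alternatives, and from 7 to 8 and 9 to 11 when an array was left out. Signal limits dim genes such as *Ptgs2* and *Ahrr*.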
